A study of Bos taurus with 6 samples.

Results

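The 30 genes described here build peroxisomes or carry out their lipid chemistry, and they were taken by symbol from the 22839 different symbols in the read counts of longissimus thoracis (LT) muscle. They comprise 13 peroxins (the PEX proteins that assemble the organelle) and 17 lipid enzymes, fatty acid transporters, membrane proteins and a protease. The muscle came from 6 Hanwoo (Korean native cattle) steers fed commercial feeds in the conventional way, 3 with a high and 3 with a low number of fine marbling particles (NFMP), the small flecks of intramuscular fat counted on an image of the cut muscle. The high-NFMP steers were 3-8, 10-8 and 10-9, aged 32.5, 33.8 and 34.5 months, and the low-NFMP steers were 3-1, 3-3 and 10-16, aged 37.8, 33.7 and 35.4 months. Each steer gave 1 library, and the steers were chosen on NFMP rather than treated, so that other differences between these animals can go with the group.

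Peroxisomes are small organelles bounded by a membrane that shorten very long and branched fatty acids, begin the synthesis of ether lipids (plasmalogens) and produce and break down hydrogen peroxide. Their enzymes are made in the cytosol and carried in by the receptors PEX5 and PEX7, which dock at PEX13 and PEX14 on the membrane. The receptors are then tagged with ubiquitin by a ring that includes PEX2 and PEX10 and pulled back out by an ATPase complex that includes PEX6 and is anchored by PEX26. In muscle and fat, peroxisomes work beside the mitochondria, and many of their enzymes are known targets of the peroxisome proliferator-activated receptors (PPARs).

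The libraries held between 16283873 and 17192750 counted reads. Reads came from the 3′ end of transcripts, so that a count was not divided by transcript length. Values are normalized counts, that is raw counts brought to 1 common effective depth by the trimmed mean of M-values (TMM), and the groups were compared across 15039 genes with edgeR's quasi-likelihood test. The threshold was that of the study, for which a called gene needs both a more than 2-fold difference and an unadjusted p below 0.05. Adjusted p-values (Benjamini-Hochberg) take account of all 15039 genes. The muscle markers ACTA1, CKM, MB and DES had the highest summed level of the 7 marker lists in each steer, between 501985 and 892008 normalized counts. Of the 6 adipocyte markers, ADIPOQ, CIDEC and CIDEA had an unadjusted p below 0.05 and did not overlap between the groups, with log2 fold changes of 0.63, 0.89 and 0.69 toward the high-NFMP group, short of the fold change limit. Over all tested genes 5.73% had such a p toward the high-NFMP group and 7.97% had all high-NFMP steers above. Of the other marker lists, PDGFRA of fibroblasts and preadipocytes (-0.51) and MYL3 of slow fibres (-0.78) had an unadjusted p below 0.05 toward the low-NFMP group, also without overlap, while the other 4 markers of the first list (from 0.16 to 0.59) and 3 of the other 4 of the second (from 0.06 to 0.32) had positive log2 fold changes, none with such a p. These 5 markers are named after their values were seen. No adipocyte marker was at 0 in any library, and their summed level was 8487 normalized counts in steer 3-8 and between 2547 and 3733 in the other 5 steers. The part of fat cells in the differences given here was not tested, and in such bulk tissue fewer cells of a type and less RNA per cell cannot be told apart.

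Of the 28 peroxisomal genes that passed the filter on low counts, PEX13 and PECR were lower in the high-NFMP group, none was higher by edgeR or DESeq2, and 26 did not pass the threshold. The 2 called genes were 7.14% of the 28, against 3.9% of all tested genes called in either direction, 1.36% called lower and 2.53% called higher. PECR lies within another gene whose counts were nearly the same, and without it 1 of 27 was called, or 3.7%. With 1 steer left out in turn, the members called lower ranged from 1 to 3 and all genes called lower from 174 to 378. At an unadjusted p below 0.05 alone, PEX13, PEX14, AMACR, PECR and AGPS lay toward the low-NFMP group and ACAA1 toward the high-NFMP group, which was 21.4% of the 28 against 11.5% of all tested genes (5.74% toward the low-NFMP and 5.73% toward the high-NFMP group). Without steer 10-9, without 3-1 or with age as a term, the 6 members at such a p became 3. No member had an adjusted p below 0.05 by edgeR with the filter on low counts, where the smallest was 0.0806 for PECR. By edgeR without that filter, and by DESeq2, PECR and PEX13 did. In 5 of the 28, PEX13, PEX14, SCP2, PECR and AGPS, the highest value of the high-NFMP group was under the lowest of the other group, a pattern found in 9.16% of all tested genes, and in none did the high-NFMP steers lie above, as 7.97% of all genes did. In either direction 17.9% of the 28 did not overlap, or 14.8% of the 27 without PECR, near the 17.1% of all tested genes. The median log2 fold change of the 28 was -0.06 and that of all tested genes 0.02, but the former was 0.023 without steer 3-8 and -0.12 with the first label number as a term.

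**Figure D1:**
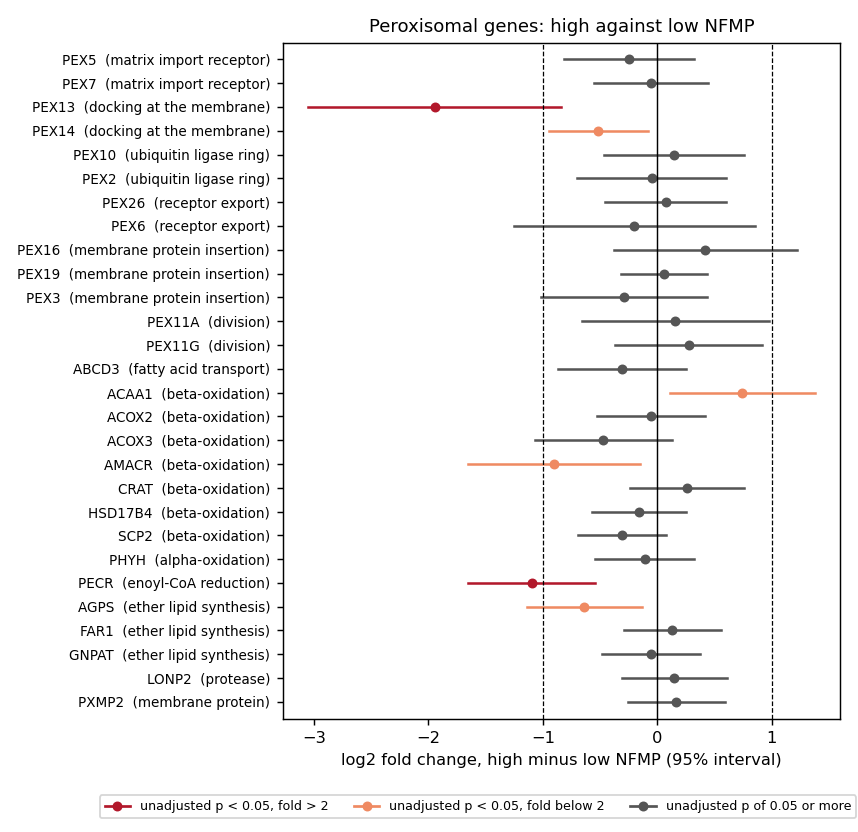
Log2 fold change of each of the 28 tested peroxisomal genes (points) with its 95% interval (lines), high minus low NFMP, 3 steers in each group, ordered by role from import receptors at the top to membrane proteins at the bottom, with dashed lines at a 2-fold change. PEX13 at -1.94 and PECR at -1.10 lie beyond the lower dashed line, and PEX14, AMACR, AGPS and ACAA1 have intervals that leave out 0 and points short of a 2-fold change.

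For most of the set the data bounded the difference. In 19 of the 28 genes the 95% interval of the log2 fold change lay within 1 in either direction, which held for 57.3% of all tested genes. The biological coefficient of variation that edgeR estimated from the steers had a median of 22.3% in these genes and 24.1% over all genes. Summed over the 30 genes, the level was 11418, 14161 and 13749 normalized counts in the high-NFMP steers 3-8, 10-8 and 10-9. It was 14181, 12523 and 14517 in the low-NFMP steers 3-1, 3-3 and 10-16, so that the groups overlapped. The 13 peroxins alone summed to 1835, 2240 and 2107 normalized counts in the high-NFMP steers and 2258, 2213 and 2241 in the low-NFMP steers. In these sums steer 3-8 was the lowest of the 6 steers.

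**Figure D2:**
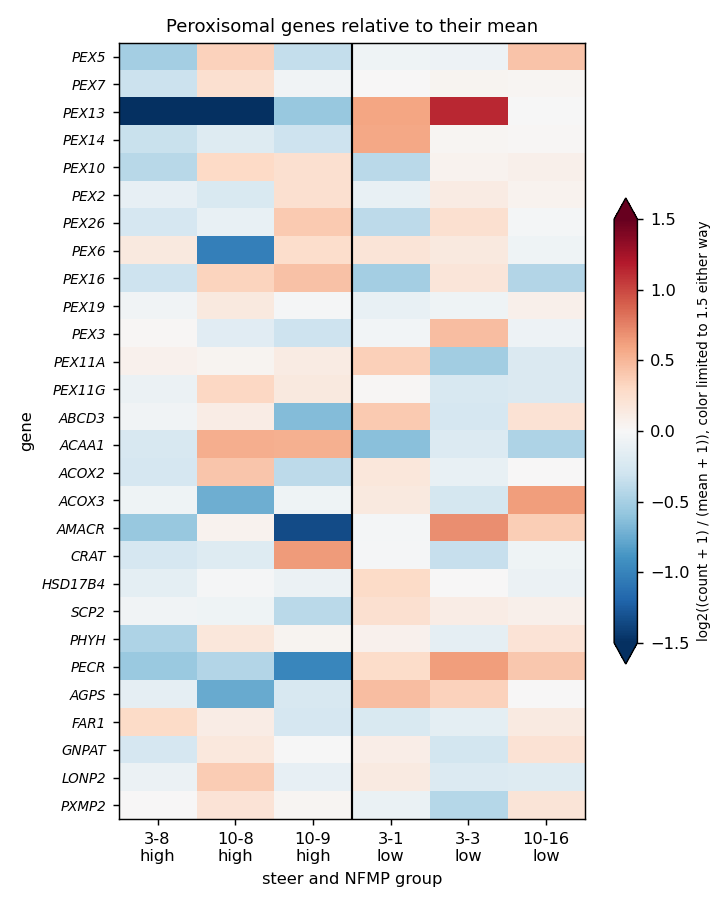
Level of the 28 tested genes (rows, ordered by role) in each steer (columns, with its NFMP group), as log2 of the normalized count plus 1 over the mean over 6 steers plus 1, red above and blue below the mean, with the color limited to 1.5 either way. PEX13, PECR, PEX14, AGPS, SCP2, ACOX3 and HSD17B4 are below the mean in all 3 high-NFMP steers, some of them only faintly. Most other rows are pale with steers of both groups on either side of the mean.

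Of the 13 peroxins, both docking proteins and no other had an unadjusted p below 0.05 with all steers and no added term. They were 15.4% of the 13, against 11.5% of all tested genes. PEX13, a membrane protein that takes part in the pore for imported proteins, had 7.09, 6.67 and 16.0 normalized counts in the high-NFMP steers 3-8, 10-8 and 10-9. In the low-NFMP steers 3-1, 3-3 and 10-16 it had 37.3, 54.6 and 24.2. The groups did not overlap, and the closest pair of steers was 10-9 and 10-16. The means were 9.94 ± 5.30 (SD, n = 3) and 38.7 ± 15.2 (SD, n = 3), 3.90 times higher in the low-NFMP group, and the log2 fold change was -1.94 with a standard error of 0.52 and a 95% interval from -3.05 to -0.84. By edgeR its unadjusted p was 0.00199 and its adjusted p 0.128, between 0.0415 and 0.422 over the alternatives.

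PEX13 rested on few reads, 7, 6 and 16 raw counts against 39, 59 and 24, and it passed the filter on low counts through the low-NFMP group, in which all 3 libraries had 10 counts or more. Asking for 10 counts in every library removed it. The call held whichever steer was left out, with log2 fold changes between -2.46 and -1.62. Between the steers whose label begins with 3 its mean was 7.09 in 1 high-NFMP steer against 46.0 in 2 low-NFMP steers, and between those whose label begins with 10 it was 11.4 in 2 against 24.2 in 1.

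PEX14, the partner of PEX13 and the first landing place of loaded PEX5, was counted far more often. It had 381.0, 421 and 387 normalized counts in the high-NFMP steers and 719, 490.4 and 489 in the low-NFMP steers. The groups did not overlap, but steer 3-1 stood above its group while 3-3 and 10-16 lay close to the high-NFMP steers. The means were 396 ± 21.6 (SD, n = 3) and 566 ± 132 (SD, n = 3). The log2 fold change was -0.51 (standard error 0.20), with an unadjusted p of 0.0239 and an adjusted p of 0.346 by edgeR, so the fold change limit was not reached. Without steer 3-1 the log2 fold change was -0.31 (unadjusted p = 0.195 by edgeR), and with age as a term it was -0.25 (unadjusted p = 0.34 by edgeR). The unadjusted p was also above 0.05 by edgeR without 3-8 (0.0505), without 10-9 (0.0539) and with the first label number as a term (0.0518). Steer 3-1 was also the oldest.

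**Figure D3:**
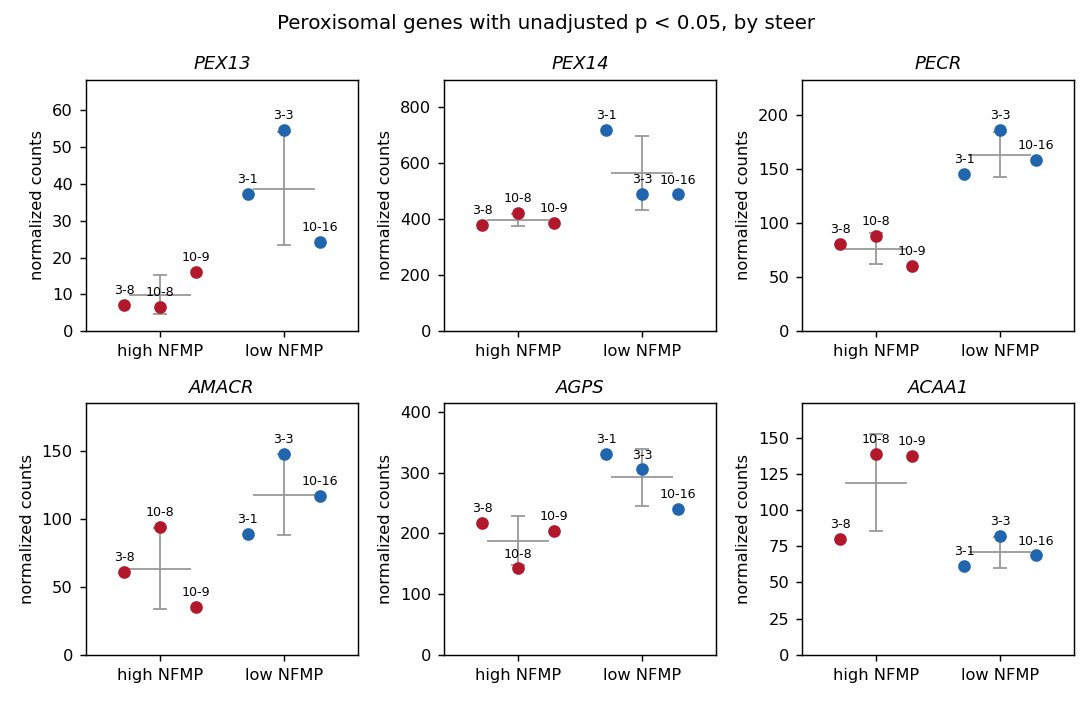
Normalized counts of the 6 peroxisomal genes with an unadjusted p below 0.05, by steer (labelled points, red for high and blue for low NFMP), with the group mean and SD in grey (n = 3 each) and each vertical axis starting at 0. The groups are apart in PEX13, PEX14, PECR and AGPS, while in AMACR steer 10-8 lies above 3-1 and in ACAA1 steer 3-8 lies below 3-3.

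Neither import receptor passed the threshold, and steers of both groups overlapped. PEX5, which binds enzymes by their C-terminal signal, ranged from 146 to 264 normalized counts in the high-NFMP steers and from 198 to 281 in the low-NFMP steers, with a log2 fold change of -0.25 (95% interval from -0.81 to 0.32). PEX7, which binds the N-terminal signal found in enzymes such as PHYH, AGPS and ACAA1, was at 166 ± 32.7 against 172 ± 2.37 (SD, n = 3 each). Its log2 fold change was -0.05 (95% interval from -0.55 to 0.44), so the interval left out a 2-fold change in either direction for both receptors.

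Behind the docking step, the peroxins that recycle the receptors did not pass the threshold. PEX2 and PEX10, ubiquitin ligases of the ring, had log2 fold changes of -0.05 and 0.15, with 95% intervals from -0.70 to 0.60 and from -0.46 to 0.76. PEX26, the anchor of the export complex, had means of 229 ± 56.1 and 218 ± 47.2 normalized counts (SD, n = 3 each), and its log2 fold change was 0.07. PEX6, an ATPase, had a mean of 17.7 normalized counts in the high-NFMP group and 20.5 in the low-NFMP group, and its 95% interval from -1.25 to 0.85 did not leave out a 2-fold fall. PEX6 overlaps LOC112443696 in the RefSeq gene table, and that gene was counted 19, 6, 24, 28, 33 and 21 times where PEX6 was counted 21, 8, 23, 23, 23 and 18 times in steers 3-8, 10-8, 10-9, 3-1, 3-3 and 10-16. A sharing of reads between PEX6 and that gene was not tested.

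The membrane assembly factors and the division factors showed no called difference. PEX19, the chaperone that brings new membrane proteins to the organelle, was counted the most evenly of the 13 peroxins, between 607 and 727 normalized counts over the 6 steers, with a log2 fold change of 0.06 (95% interval from -0.32 to 0.44). PEX3, the docking site of PEX19, had a log2 fold change of -0.29 and PEX16, which brings in PEX3, one of 0.42, with steers of both groups overlapping. For these genes of 31.6 to 69.4 normalized counts a steer the intervals, from -1.02 to 0.43 and from -0.38 to 1.22, reached past a 2-fold change.

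PEX11A and PEX11G, which elongate the membrane before division, were at 39.8 ± 1.15 against 35.7 ± 11.8 and at 73.5 ± 10.3 against 60.6 ± 6.34 normalized counts (SD, n = 3 each). Their log2 fold changes of 0.16 and 0.28 had 95% intervals from -0.65 to 0.97 and from -0.37 to 0.92. PEX11A overlaps PLIN1, the lipid droplet coat of fat cells, in the RefSeq gene table. PLIN1 was counted 525 times in steer 3-8, in which PEX11A was counted 39 times, and between 124 and 256 times in the other steers, in which PEX11A was counted between 28 and 51 times.

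Among the fatty acid transporters, ABCD3, which carries branched and long acyl chains into the peroxisome, had 184, 207 and 121 normalized counts in the high-NFMP steers and 251, 160.1 and 222 in the low-NFMP steers, a log2 fold change of -0.31 (95% interval from -0.86 to 0.25). ABCD2, its relative for very long chains, was hardly counted. Its raw counts were 3, 0 and 1 in the high-NFMP and 0, 3 and 0 in the low-NFMP steers, and it was removed by the filter.

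The chain-shortening enzymes lay in both directions, none past the threshold. AMACR, the racemase that prepares branched chains for oxidation, had 60.8, 94.5 and 35.1 normalized counts in the high-NFMP steers and 89.0, 148 and 117 in the low-NFMP steers. The groups overlapped only in that steer 10-8 lay above 3-1. The log2 fold change was -0.90 (standard error 0.35, unadjusted p = 0.0224 and adjusted p = 0.341 by edgeR), just short of the fold change limit, which it passed without steer 10-8 (-1.28) or 3-1 (-1.07) and with age as a term (-1.25). Without steer 3-8, 10-9, 3-3 or 10-16 its unadjusted p was above 0.05.

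ACAA1, the thiolase of the last step of the cycle, lay the other way. It had 80.1, 139 and 137 normalized counts in the high-NFMP steers and 61.2, 82.4 and 68.7 in the low-NFMP steers. Steers 10-8 and 10-9 stood above the other 4, and steer 3-8 fell within the low-NFMP range. The log2 fold change was 0.75 (standard error 0.30, unadjusted p = 0.0244 and adjusted p = 0.347 by edgeR). Among the steers whose label begins with 3 the log2 ratio of the means was 0.16, and among those that begin with 10 it was 1.01. Without steer 10-8, 10-9, 3-1 or 10-16 the unadjusted p was above 0.05, as it was with age (0.0709 by edgeR) or the first label number (0.0896 by edgeR) as a term.

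SCP2, which yields both a thiolase for branched chains and a sterol carrier, had 1057, 1042 and 828 normalized counts in the high-NFMP steers and 1295, 1180 and 1153 in the low-NFMP steers. The groups did not overlap, but the log2 fold change was small, -0.31 (95% interval from -0.69 to 0.07, unadjusted p = 0.105 by edgeR). HSD17B4, the bifunctional enzyme of the middle steps, had a log2 fold change of -0.16 (95% interval from -0.57 to 0.25). The oxidases of branched chains, ACOX2 and ACOX3, were at -0.06 and -0.47, with 95% intervals from -0.53 to 0.42 and from -1.07 to 0.13.

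PHYH, which starts the removal of a carbon from phytanic acid, a branched chain derived from plant chlorophyll and familiar in ruminant fat, had the highest count of the 30 genes. It ranged from 3077 to 4762 normalized counts in the high-NFMP steers and from 3843 to 4885 in the low-NFMP steers. The log2 fold change of -0.11 had a 95% interval from -0.54 to 0.32, so neither a 2-fold rise nor a 2-fold fall lay within it. CRAT, which passes short acyl groups to carnitine so that they can leave, had 1508, 1574 and 2790 normalized counts in the high-NFMP steers against 1769, 1416 and 1723, with steer 10-9 alone standing high. Its log2 fold change was 0.26 (95% interval from -0.24 to 0.76), and without steer 10-9 it was -0.07. CRAT overlaps PTPA, whose counts ranged from 2251 to 5508.

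PECR, the reductase that saturates trans-2-enoyl-CoA and so belongs to fatty acid elongation rather than breakdown, was the other called gene. Its raw counts were 80, 79 and 60 in the high-NFMP steers 3-8, 10-8 and 10-9. In the low-NFMP steers 3-1, 3-3 and 10-16 they were 152, 201 and 157. In the RefSeq gene table PECR lies wholly inside TMEM169, a gene for a membrane protein, and the raw counts of TMEM169 in the same order were 81, 79, 66, 158, 202 and 160. The counts of the overlapping genes thus differed by between 0 and 6 in a library, and these values cannot tell which of them the reads came from.

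**Figure D4:**
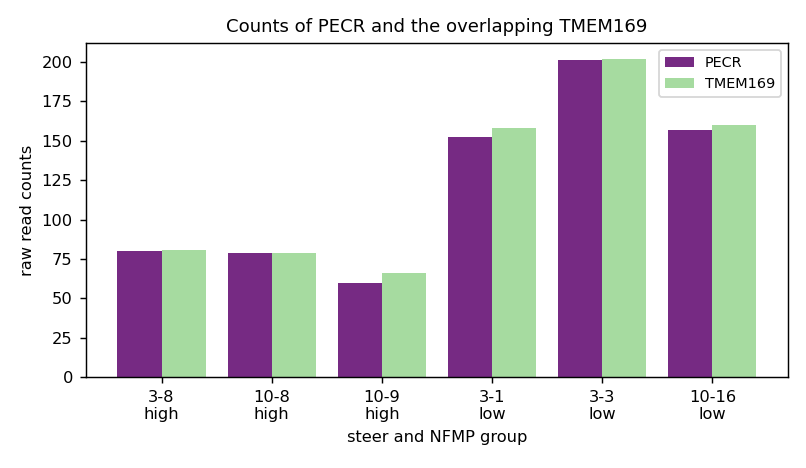
Raw read counts (vertical axis, from 0) of PECR in purple and TMEM169 in green for each steer with its NFMP group. The bars of a steer differ by at most 6 counts, and in each low-NFMP steer both bars are at or above 152, whereas in each high-NFMP steer both are at or below 81.

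After normalization PECR had 81.1, 87.8 and 60.2 counts in the high-NFMP steers and 145, 186 and 159 in the low-NFMP steers. The groups were well apart, and the means of 76.3 ± 14.4 (SD, n = 3) and 163 ± 20.7 (SD, n = 3) gave a log2 fold change of -1.10 with a standard error of 0.26 and a 95% interval from -1.65 to -0.54. The adjusted p was 0.0806 by edgeR, between 0.0136 and 0.316 over the alternatives, and TMEM169 had a log2 fold change of -1.08 with an adjusted p of 0.073. The difference was of like size within the labels that begin with 3, a log2 ratio of -1.03, and with 10, one of -1.10. Without steer 10-9 the log2 fold change was -0.94, and without 3-3 it was -0.996, with unadjusted p-values by edgeR of 0.00418 and 0.00577.

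In ether lipid synthesis, 1 of the 3 enzymes had an unadjusted p below 0.05, as 11.5% of all tested genes did, and none passed the threshold. AGPS, which exchanges the acyl chain for an alkyl chain and so makes the ether bond, had 218, 142 and 204 normalized counts in the high-NFMP steers and 331, 305 and 240.3 in the low-NFMP steers. The groups did not overlap, with 3-8 and 10-16 nearest to each other. The log2 fold change was -0.64 (standard error 0.23, unadjusted p = 0.0161 and adjusted p = 0.303 by edgeR), short of the fold change limit. Without steer 10-8 it was -0.44 (unadjusted p = 0.0887 by edgeR), without 3-1 it was -0.54 (unadjusted p = 0.0673 by edgeR), and with age as a term it was -0.61 (unadjusted p = 0.0674 by edgeR).

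GNPAT, which acts before AGPS and with it on the inner face of the membrane, had a log2 fold change of -0.06 (95% interval from -0.48 to 0.37). FAR1, which makes the fatty alcohol that AGPS uses, had one of 0.13 (95% interval from -0.29 to 0.56). Steers of both groups overlapped in both genes, at 496 to 699 normalized counts for GNPAT and 583 to 845 for FAR1. LONP2, the protease that clears damaged matrix proteins, and PXMP2, a channel protein of the membrane, were at 0.15 and 0.17, with 95% intervals from -0.31 to 0.61 and from -0.26 to 0.59. PXMP4, another membrane protein, was counted between 6 and 18 times a library and was removed by the filter.

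Other peroxisomal genes were described from 3 lists, of which 51 genes were found and 46 tested, and these counts do not cover every gene first listed, since some are not reported here. Of the 46, none was called by edgeR or by DESeq2, against the 3.9% of all genes. At an unadjusted p below 0.05, 5 lay toward the low-NFMP and 1 toward the high-NFMP group, in all 13.0% against the 11.5% of all tested genes, and the median log2 fold change was 0.03. Of 14 genes for biogenesis and division, ATAD1, which takes misplaced proteins out of membranes, was at -0.69 on the log2 scale and TYSND1, the protease that trims imported enzymes, at 0.74, and they had the only unadjusted p-values below 0.05. Of 20 tested lipid enzymes NUDT19 (-0.50) and HSDL2 (-0.72) had such a p, and of 12 tested oxidases and antioxidant enzymes CAT and SLC25A17 (-0.48). Catalase (CAT), which breaks down hydrogen peroxide, was at 1165 ± 113 against 1528 ± 115 normalized counts (SD, n = 3 each, high before low NFMP), or -0.39 on the log2 scale (adjusted p = 0.41 by edgeR), and its groups did not overlap. The groups did not overlap, in either direction, in 15.2% of the 46 genes and 17.1% of all tested genes. These 6 genes are named after their values were seen, and the smallest adjusted p among them was 0.27, for HSDL2, by edgeR.

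**Figure D5:**
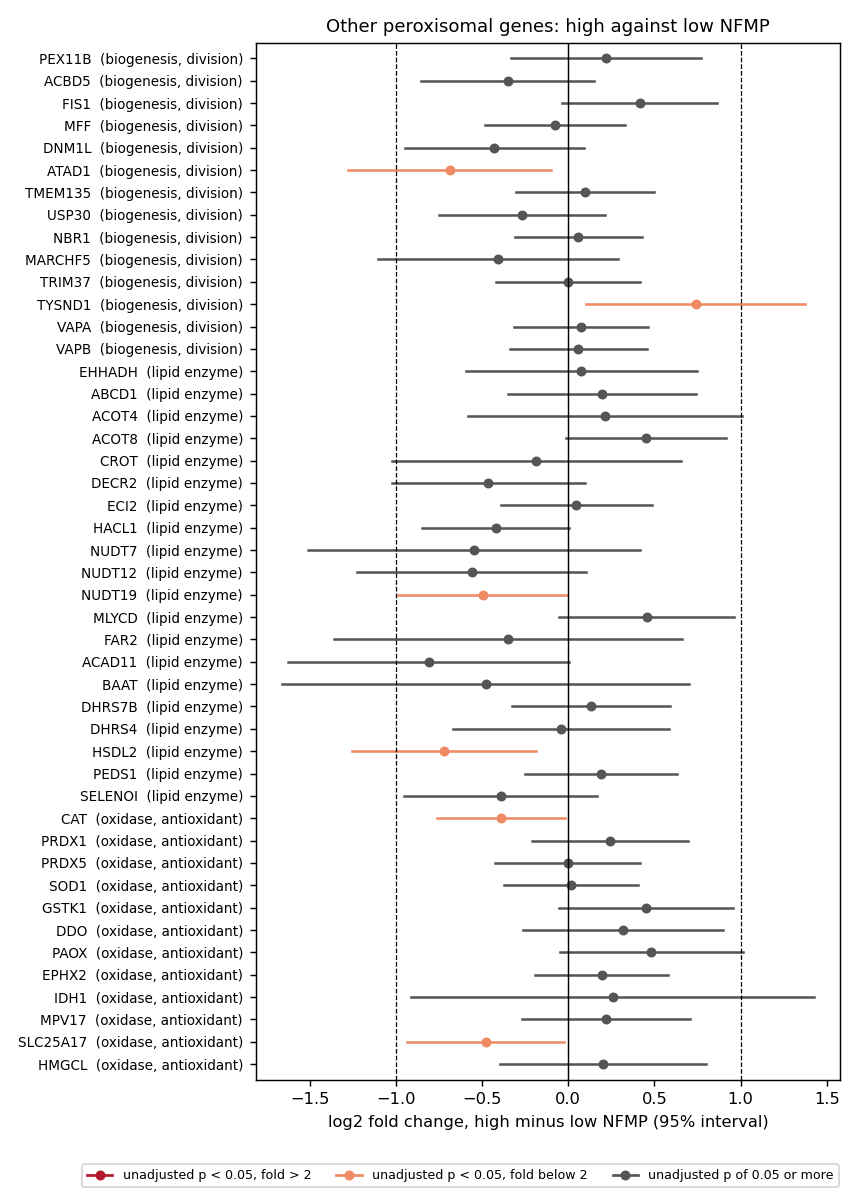
Log2 fold change (points) and 95% interval (lines), high minus low NFMP, of the 46 tested genes of the 3 further peroxisomal lists, 3 steers in each group, with dashed lines at a 2-fold change. All points lie between the dashed lines, from -0.81 for ACAD11 to 0.74 for TYSND1, and the intervals of 6 of the 46 genes leave out 0.

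Among the PPARs, PPARD was called higher, at 878, 756 and 939 normalized counts in the high-NFMP steers and 427, 234 and 387 in the low-NFMP steers, with a log2 fold change of 1.30 and a standard error of 0.23. By edgeR its adjusted p was 0.017 (between 6.42e-05 and 0.106 over the alternatives). PPARA, the form best known for switching on peroxisomal oxidation, had a log2 fold change of 0.16 (95% interval from -0.27 to 0.59). PPARG, the regulator of fat cell formation, had 283, 137 and 134 counts against 138, 142 and 130.2, with steer 3-8 alone standing high, and a log2 fold change of 0.44 (95% interval from -0.19 to 1.06). Without steer 3-8 that of PPARG was -0.01.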

How the data were processed

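RNA sequencing counts of LT muscle from 6 Korean cattle steers, 3 per NFMP group as labelled, were analysed. The authors made 3′ mRNA libraries and deposited, for each gene symbol, raw read counts without normalization. Their methods name Tophat2 with HTSeq and, elsewhere, Bowtie2 alignments, unique or multiple, as the source of the counts, and the submitters' processing notes name Bowtie2 and bedtools. Strand use in the counting is also not given in the sources used here. Overlapping genes or near-identical copies can therefore share reads. All 23015 rows name a gene, and 176 extra rows of repeated symbols were kept apart.

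The counts were fitted in R 4.3.3 with edgeR 4.0.16 (default filter with a minimum count of 10 and a minimum total of 15, TMM factors between 0.915 and 1.083, robust quasi-likelihood test). Standard errors and 95% intervals were derived from the F statistic. An exact permutation test of 3 against 3 steers cannot give a p below 0.1. As alternatives, DESeq2 1.42.0 and limma 3.58.1 on quantile-normalized values replaced edgeR, RLE factors or plain library totals replaced TMM, the filter was dropped or raised to 10 counts in all 6 libraries, age or the first label number entered the model, and single steers were left out in turn. The procedures were tested on simulated data. Members and gene lists were chosen with earlier results of these data known. All 30 members, other listed genes past the threshold, PPARA, PPARD and PPARG were named by rule. The overlapping genes LOC112443696, PLIN1, TMEM169 and PTPA were picked from 12 genes that overlap a member, and the others are not named. Overlaps were read from RefSeq genes on ARS-UCD2.0, a table that held all 30 members, and no coordinates are given because the authors' build differs. Some listed genes are not reported here and are left out of the counts of their lists. Protein and promoter sequences were not used here. Of the listed genes, 2 were found through a synonym and 1 was not found. Because the reads carried no molecular identifiers as far as is stated, 2 reads need not be 2 molecules, and genes of 10 counts carry a large counting error.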

Additional observations from a re-analysis of the deposited data

How the results depend on the processing

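PEX13, PECR and PPARD kept their direction under all 14 alternatives, except that PEX13 was removed when 10 counts were asked for in every library. That filter left 1 member called lower, with 247 genes called higher and 117 lower in all, and without a filter 627 were higher and 342 lower. Without a filter 1 other peroxisomal gene was called higher, PIPOX, with raw counts of 8, 2 and 7 for high NFMP and of 0 in each low-NFMP library. At an adjusted p below 0.05, PEX13 and PECR (2 members) passed without a filter and by DESeq2. With age as a term 3 members had an unadjusted p below 0.05 and 1 other peroxisomal gene, ACAD11, was called lower. With a steer left out, the members called lower ranged from 1 (without 10-9 or 3-3) to 3 (without 10-8 or 3-1), those at an unadjusted p below 0.05 from 3 (without 10-9 or 3-1) to 6, the other peroxisomal genes called lower from 0 to 2 (HSDL2 and ACAD11 without 3-8, ATAD1 without 10-8, ACAD11 without 10-16), and all genes called lower from 174 to 378 (without 3-8).

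The sign turned under some alternatives for genes that were not called, among them CRAT and PPARG, whose log2 fold changes were 0.26 and 0.44 with all steers. PEX10 was at -0.032 and PEX26 at -0.0078 with the first label number as a term, and PEX19 at -0.012 with library totals alone. With age as a term PEX26 was at -0.035, ACOX2 at 0.073, PHYH at 0.062, GNPAT at 0.14 and FAR1 at -0.026. With a steer left out, log2 fold changes ranged from -0.19 to 0.080 for PEX2, -0.42 to 0.15 for PEX6, -0.18 to 0.072 for PEX7, -0.030 to 0.45 for PEX11A, -0.13 to 0.24 for PEX26, -0.31 to 0.11 for ACOX2, -0.20 to 0.054 for PHYH, -0.19 to 0.082 for GNPAT, -0.071 to 0.44 for CRAT, -0.0015 to 0.27 for LONP2 and -0.013 to 0.63 for PPARG. The cause of these moves was not tested. The scaling alternatives moved the median of all genes by less than 0.1 on the log2 scale. Low counts limit PEX6, PEX13, ABCD2 and PXMP4.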
